A study of Homo sapiens with 2 samples.

Results

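The interferon-stimulated, TRIM and antigen presentation genes were chosen by symbol. They comprise every gene whose annotated symbol starts with TRIM, IFI, IFN, OAS, IRF, PARP, GBP, APOL, TLR, HLA-, TAP1, TAP2 or TAPBP, together with RSAD2, B2M, ISG15, MX1 and MX2, and without antisense genes. This gave 115 of the 13763 genes with a symbol, read by 158 probe sets. By role they were 18 antiviral effectors, 3 genes of class I antigen presentation, 11 pathogen sensors, 11 interferon regulatory factors and IRF2 binding proteins, 2 interferon receptor chains, 3 GBP genes, 3 PARP genes, 1 APOL gene and 63 TRIM genes. HLA molecules, the TAP transporter and MX1 are not analysed here, since the rule found no member under HLA-, TAP1, TAP2 or MX1. Antigen presentation therefore means tapasin, its relative TAPBPL and B2M. Under OAS the rule found only OASL, and under IFN only IFNGR1 and IFNGR2. The values therefore do not describe other OAS genes or the type I interferon receptor.

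Both arrays measured total RNA of S2-013, a human pancreatic cancer cell line and a subline of SUIT-2. In each culture HOXB7, a homeobox transcription factor, had been knocked down and a rescue-HOXB7 plasmid put back, so the knockdown and the plasmid were shared. The cultures differed in the MEK inhibitor, which 1 received and the other did not. MEK, a kinase of the RAS pathway, phosphorylates and so activates ERK. Which inhibitor was used, its dose and time, and whether the knockdown cells were 1 clone is not given in the sources used here. Each group holds 1 array, so no value has a replicate error and no difference could be tested. Effects of the culture, the RNA preparation or the array and of the inhibitor cannot be told apart.

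Type I interferons signal through the kinases JAK1 and TYK2 to a factor complex that holds IRF9 and binds interferon-stimulated response elements (ISREs) in target promoters. Interferon gamma signals through IFNGR1 and IFNGR2 and induces IRF1, a driver of antigen presentation genes. Cells can also switch on part of the same programme through IRF3 and IRF7 after Toll-like receptors or RIG-I-like receptors sense foreign nucleic acid. The products fall into proteins that block viral replication and proteins that load peptides onto class I molecules for display to T cells. TRIM proteins are a large family, mostly ubiquitin ligases, of which some are induced by interferon and restrict viruses and many act in unrelated processes.

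The ISRE was searched as GAAA, any 2 bases and GAAA again, on both strands, in the 250 bases before each annotated start. The sequences are from RefSeq (GRCh38.p14), and a gene with several starts counts once if any window holds the letters. Of 27305 genes with a window, 3.71% held the motif. Windows were found for 57 of the 75 members above the expression floor (defined with the values), and 18 of these (31.6%) held it. Among antiviral effectors it stood in 9 of 10 windows, IFI35 being the exception, and among TRIM genes in 6 of 27. The 170 bases before the start are shown for 7 of these 18 members, which were picked by hand. Their differences run from -1.06 to 0.66, and any part of the letters in these values was not tested. Capitals mark the ISRE letters or their reverse complement, and overlapping matches run together.
RSAD2 (chr2:6877607-6877776, plus strand): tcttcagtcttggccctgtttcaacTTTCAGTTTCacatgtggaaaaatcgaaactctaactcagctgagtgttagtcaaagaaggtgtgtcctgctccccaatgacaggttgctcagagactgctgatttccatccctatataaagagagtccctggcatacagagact
IFIT3 (chr10:89327827-89327996, plus strand): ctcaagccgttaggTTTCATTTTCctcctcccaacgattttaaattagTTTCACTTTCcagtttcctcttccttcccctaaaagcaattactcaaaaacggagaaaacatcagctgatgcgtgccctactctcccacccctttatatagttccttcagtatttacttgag
IFIT1 (chr10:89392453-89392622, plus strand): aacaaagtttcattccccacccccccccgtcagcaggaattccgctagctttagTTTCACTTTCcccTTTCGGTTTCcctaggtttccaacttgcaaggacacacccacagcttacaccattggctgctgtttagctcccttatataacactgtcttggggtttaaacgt
IFIT5 (chr10:89414398-89414567, plus strand): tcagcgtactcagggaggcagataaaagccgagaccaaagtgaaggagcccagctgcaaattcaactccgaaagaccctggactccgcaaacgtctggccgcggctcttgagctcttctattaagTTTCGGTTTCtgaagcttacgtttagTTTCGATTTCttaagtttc
ISG15 (chr1:1013327-1013496, plus strand): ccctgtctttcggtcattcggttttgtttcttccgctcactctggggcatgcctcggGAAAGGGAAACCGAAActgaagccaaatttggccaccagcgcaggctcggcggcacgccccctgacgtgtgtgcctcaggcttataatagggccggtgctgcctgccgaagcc
B2M (chr15:44711347-44711516, plus strand): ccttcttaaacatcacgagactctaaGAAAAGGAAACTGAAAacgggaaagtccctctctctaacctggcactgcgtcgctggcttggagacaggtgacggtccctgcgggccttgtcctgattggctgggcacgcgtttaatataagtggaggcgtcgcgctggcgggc
TAPBP (chr6:33314079-33314248, minus strand): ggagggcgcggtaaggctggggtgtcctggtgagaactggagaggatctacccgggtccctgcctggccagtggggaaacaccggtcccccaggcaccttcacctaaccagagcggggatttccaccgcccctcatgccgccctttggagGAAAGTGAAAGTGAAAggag
RSAD2 has its match 145 bases before the second of its annotated starts, IFIT3 at 156 and 122 before the first of its starts, IFIT1 at 116 and 103, and IFIT5 at 45 and 19. ISG15 and B2M hold overlapping pairs, from 113 and 144 bases before the start, and TAPBP holds an overlapping pair from 20 bases before it. OASL and IFIT2 had no entry in the sequence table. The match is a description of letters and not a measured binding site. Members with the letters did not differ as a block: of the 18, 10 were lower with the inhibitor and 8 higher, with a median difference of -0.03 on the log2 scale and a range from -1.08 to 0.66. Of the 39 without them 15 were lower and 24 higher, with a median of 0.10.

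AP-1 and NF-kappaB motifs were searched in the same windows. The AP-1 letters (TGA, any base, TCA) stood in 8 of the 57 members with a window, against 8.06% of all genes. The NF-kappaB letters (GGG, any 2 bases, TTTCC) stood in 6 (10.5%), against 2.12%. B2M, TAPBP and IFIH1 held both ISRE and NF-kappaB letters. Of the 6 members lower by 2-fold in the results, 4 had a window: RSAD2 and TRIM2 held ISRE letters, TRIM2 also held AP-1 letters, and TLR4 and TLR6 held none of these 3 motifs.

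Values are on the log2 scale on which the arrays were deposited, and each difference is MEK inhibitor minus no inhibitor, so a difference of 1 is 2-fold. Genes count as above the floor where at least 1 array read 4.78 or more, which is the median of all genes' mean values. The floor does not show detection, since no detection calls were used. It was passed by 7164 genes and by 75 members, of which 68 passed it on both arrays, 2 with the inhibitor only and 5 without the inhibitor only. The 7 that passed on 1 array only had to differ to do so. Over all genes above the floor the median difference was 0.03, and the central 95% of differences ran from -0.69 to 0.72. The only measure of error is how far probe sets for 1 gene differ from each other, which covers these arrays and no variation between cultures. Over 443 such pairs the gap between their differences had a median of 0.16 and a 95th percentile of 0.80, and 2.03% of gaps were 1 or more. Every difference smaller than 0.80 lies within that bound, also where this is not repeated for the gene.

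As a check of the labels, HOXB7 read 5.85 with the inhibitor and 5.84 without it. SPRY4 and DUSP6, feedback inhibitors induced by ERK, read 4.77 and 5.27 with the inhibitor, against 6.92 and 6.53 without it. All 7 ductal epithelial markers with a symbol were above the floor on at least 1 array, but they did not move together: SOX9 read 6.79 with the inhibitor and 8.03 without it (-1.24), CLDN4 read 5.85 with and 4.90 without it (0.95), and the other 5 had differences from -0.29 (KRT18) to 0.35 (KRT7). The log2 of the summed ductal marker level was 12.2 with the inhibitor and 12.4 without it. Of 12 leukocyte markers 6 had a symbol, and CD68 (8.53 with and 8.95 without the inhibitor) and TYROBP (4.46 with and 4.85 without) passed the floor, TYROBP without the inhibitor only. The log2 of the summed leukocyte marker level was 8.77 with the inhibitor and 9.15 without it. None of 2 fibroblast and 2 acinar markers passed, and 2 of 5 endothelial markers did. The part of these cell types in the results was not tested, and in bulk RNA fewer cells of a type and less RNA per cell cannot be told apart.

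Among the 75 members above the floor, 6 were lower with the inhibitor by at least 2-fold and none was higher by that much. The lower ones were the antiviral effectors OASL, RSAD2 and IFIT2, the Toll-like receptor genes TLR4 and TLR6, and TRIM2. Their share was 8.0%, where 1.05% of all genes above the floor were lower and 0.628% higher by 2-fold. TLR6 and TRIM2 passed the floor only through the array without the inhibitor, where they were higher, so the share rests partly on the filter. TRIM8 was just outside at -0.96, and the next difference was -0.47, of TLR9. The median over the 75 members was 0.02, against 0.03 over all genes, and 40 members (53.3%) were above 0, against 53.9% of all genes. Without the floor 6 members were lower, where 0.625% of all genes were lower and 0.407% higher. With the floor at the 75th percentile of genes 4 members were lower, where 1.41% of genes were lower and 0.653% higher. No member reached 3-fold, where 0.195% of all genes were lower and 0.0838% higher. At 1.5-fold, 3 members were higher (TAPBP, IFNGR1 and TRIM16) and 7 lower, where 4.62% of all genes were higher and 3.60% lower.

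**Figure D1:**
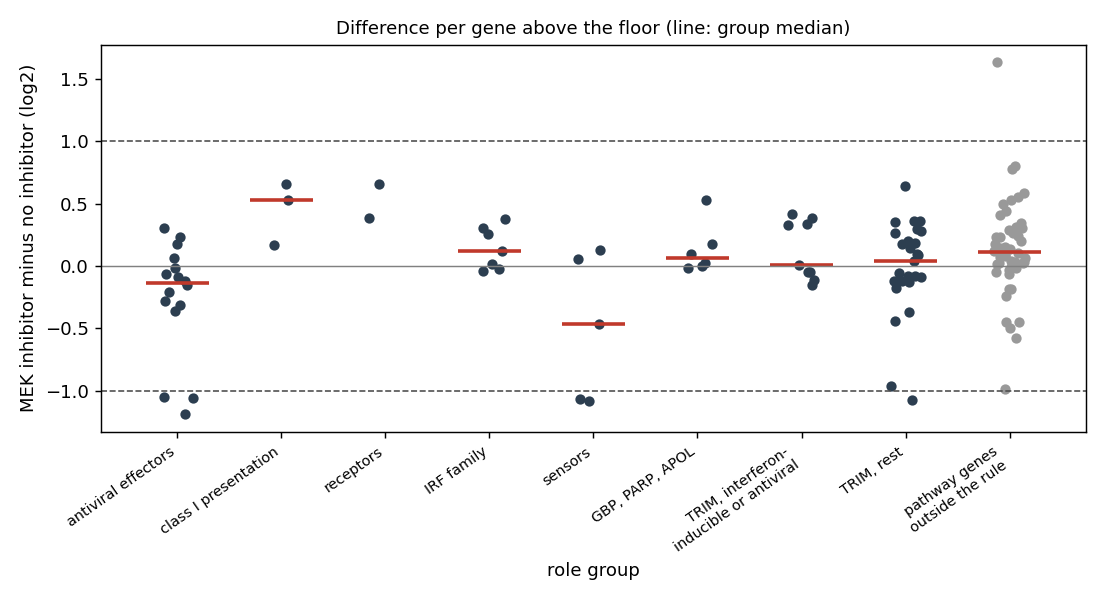
Difference on the log2 scale (MEK inhibitor minus no inhibitor) of each gene above the floor, by role group; red lines are group medians and dashed lines mark 2-fold. Antiviral effectors have a median of -0.14 with 3 genes below -1, and the 3 class I presentation genes lie between 0.17 and 0.66.

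Antiviral effectors split into 3 genes lower by 2-fold and 13 others whose differences ran from -0.36 to 0.30. Of the 16 above the floor 12 were lower and 4 higher, where 46.1% of all genes were below 0. All 16 passed the floor on both arrays. Their median was -0.14, and -0.09 for the 13 genes without OASL, RSAD2 and IFIT2.

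OASL (probe set 16771417), an OAS family protein without the family's oligoadenylate synthase activity that enhances signalling by RIG-I, read 8.11 with the inhibitor and 9.30 without it. It was 2.28-fold lower, the 48th lowest of 7164 genes. RSAD2 (probe set 16876764) encodes viperin, a radical SAM enzyme that turns CTP into a chain terminator of viral RNA synthesis. It read 7.53 with the inhibitor and 8.59 without it, 2.08-fold lower. IFIT2 (probe set 16707180), an RNA-binding tetratricopeptide protein, read 8.21 with the inhibitor and 9.26 without it, also 2.08-fold lower. All 3 stayed well above the floor on both arrays, and each was read by 1 probe set.

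The IFIT genes lie side by side on chromosome 10 in the order IFIT2, IFIT3, IFIT1B, IFIT1 and IFIT5. IFIT3, which stabilises IFIT1 on its RNA targets, read 8.95 with the inhibitor and 9.32 without it. IFIT1, which binds viral RNA that lacks a methylated cap, read 9.26 with and 9.57 without it. Their differences of -0.36 and -0.31 lie within the 0.80 that bounds most probe set disagreements. IFIT5, another binder of 5′ triphosphate RNA, was higher, with 7.47 with the inhibitor and 7.29 without it (0.17). IFIT1B was below the floor on both arrays. The differences along the cluster therefore ran from -1.05 at IFIT2 to 0.17 at IFIT5.

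The remaining effectors had differences from -0.29 to 0.30. ISG15, the ubiquitin-like modifier that marks proteins in infected cells, read 9.07 with the inhibitor and 9.09 without it. IFITM1, a membrane protein that hinders viral fusion, read 10.1 with and 10.2 without it, a difference of -0.07. Its relatives IFITM2 and IFITM3 had differences of -0.29 and 0.06, and IFITM10 had -0.12. The pseudogene IFITM4P had -0.09. IFITM genes are similar in sequence, so a probe set for 1 of them may also pick up others. IFI44 and IFI44L, interferon-induced neighbours on chromosome 1, had differences of -0.21 and -0.15. MX2, a dynamin-like GTPase that restricts HIV, read 6.53 with the inhibitor and 6.31 without it (0.23). IFI35, a partner of NMI, had the highest difference of the effectors, with 9.10 with the inhibitor and 8.79 without it (0.30).

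**Figure D2:**
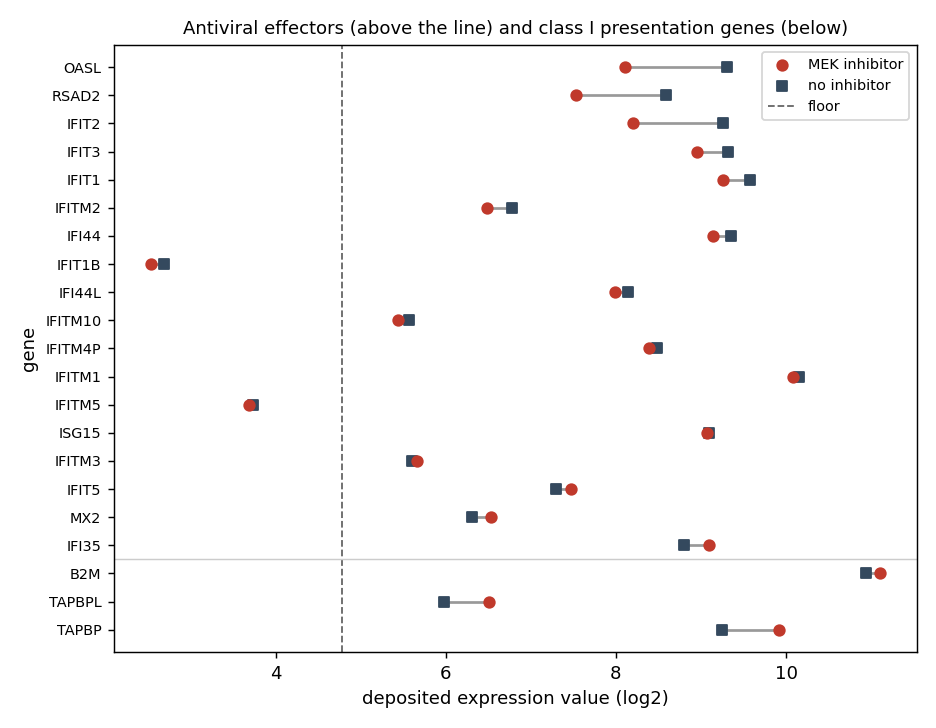
Deposited log2 value of each antiviral effector (above the grey line) and class I presentation gene (below it) with the MEK inhibitor (red circles) and without it (dark squares); the dashed line is the floor of 4.78. OASL, RSAD2 and IFIT2 have the widest gaps, and B2M, TAPBPL and TAPBP lie to the right of their values without the inhibitor.

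The 3 genes of class I antigen presentation were all higher with the inhibitor, none by 2-fold, with a median of 0.53, and 0.35 without TAPBP. TAPBP (probe set 17037511) encodes tapasin, which bridges class I molecules to the peptide transporter. It read 9.91 with the inhibitor and 9.25 without it, 1.58-fold higher, and was the member with the highest difference (230th highest of 7164 genes). It had 5 probe sets, with 3 distinct pairs of values, and their differences ran from 0.66 to 0.78. TAPBPL, a tapasin relative that edits the bound peptides, read 6.50 with the inhibitor and 5.98 without it (0.53). B2M, the light chain of class I molecules, read 11.1 with the inhibitor and 10.9 without it. Its 2 probe sets gave differences of 0.17 and 0.09, within the usual disagreement between probe sets.

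Both chains of the interferon gamma receptor were higher with the inhibitor, and no interferon was among the members. IFNGR1, the chain that binds the ligand, read 5.50 with the inhibitor and 4.85 without it, 1.58-fold higher. IFNGR2, the chain that brings in JAK2, read 7.36 with and 6.97 without it (0.39). Without the inhibitor IFNGR1 lay just above the floor. Both differences are smaller than the 0.80 that bounds 95% of probe set disagreements.

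Transcription factors of the IRF family showed small differences. Of the 7 genes of the group above the floor 5 were higher, with a median of 0.12. IRF1, an inducer of antigen presentation genes, read 7.29 with the inhibitor and 6.92 without it (0.37). IRF2, which competes with IRF1 for the same sites, read 7.99 with and 7.68 without it (0.31). IRF7, itself induced by interferon, had a difference of 0.25. IRF3, which acts downstream of the nucleic acid sensors, and IRF9, a DNA-binding part of the factor complex of type I interferon, had differences of 0.02 and -0.03, and that of IRF3 turned below 0 after a loess trend was subtracted. Of the corepressors IRF2BP2 and IRF2BPL, the first had a difference of -0.04, and -0.20 in its second probe set, and the second 0.12. IRF4, IRF5 and IRF8, factors of immune cells, were below the floor on both arrays, as was IRF2BP1.

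Toll-like receptor genes contributed 2 of the 6 members lower by 2-fold. TLR4 (probe set 17088527), the receptor for bacterial lipopolysaccharide, read 5.50 with the inhibitor and 6.59 without it, 2.12-fold lower. TLR6 (probe set 16975226), which pairs with TLR2 to bind lipopeptides, read 4.48 with the inhibitor and 5.55 without it, 2.10-fold lower, so its fold ends below the floor. TLR6 has TLR10 and TLR1 beside it on chromosome 4. Both were below the floor and had differences of -0.91 and -0.42. TLR9, a receptor for unmethylated DNA, had a difference of -0.47 and passed the floor without the inhibitor only. TLR3, a receptor for double-stranded RNA, had a difference of 0.12, with 7.59 with the inhibitor and 7.47 without it. The cytosolic sensor IFIH1 (MDA5), which binds long double-stranded RNA, read 8.66 with and 8.60 without it. Of the 5 sensors above the floor 3 were lower and 2 higher, and of the 3 lower ones TLR6 and TLR9 passed it through the array without the inhibitor only. Their median, -0.47, is the value of TLR9, and it was 0.054 with the floor at the 75th percentile, so no direction is given for the group. Some Toll-like receptors are also abundant in leukocytes, but both cultures are labelled as a cancer cell line and no leukocytes are named. Of 6 leukocyte marker genes with a symbol 4 were lower and 2 higher. Their differences were -0.43 for CD68, -0.39 for TYROBP, -0.08 for LYZ, -0.01 for CD14, 0.04 for CD163 and 0.15 for CD1C, the last 4 genes lying below the floor. Their part in the receptor values was not tested.

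**Figure D3:**
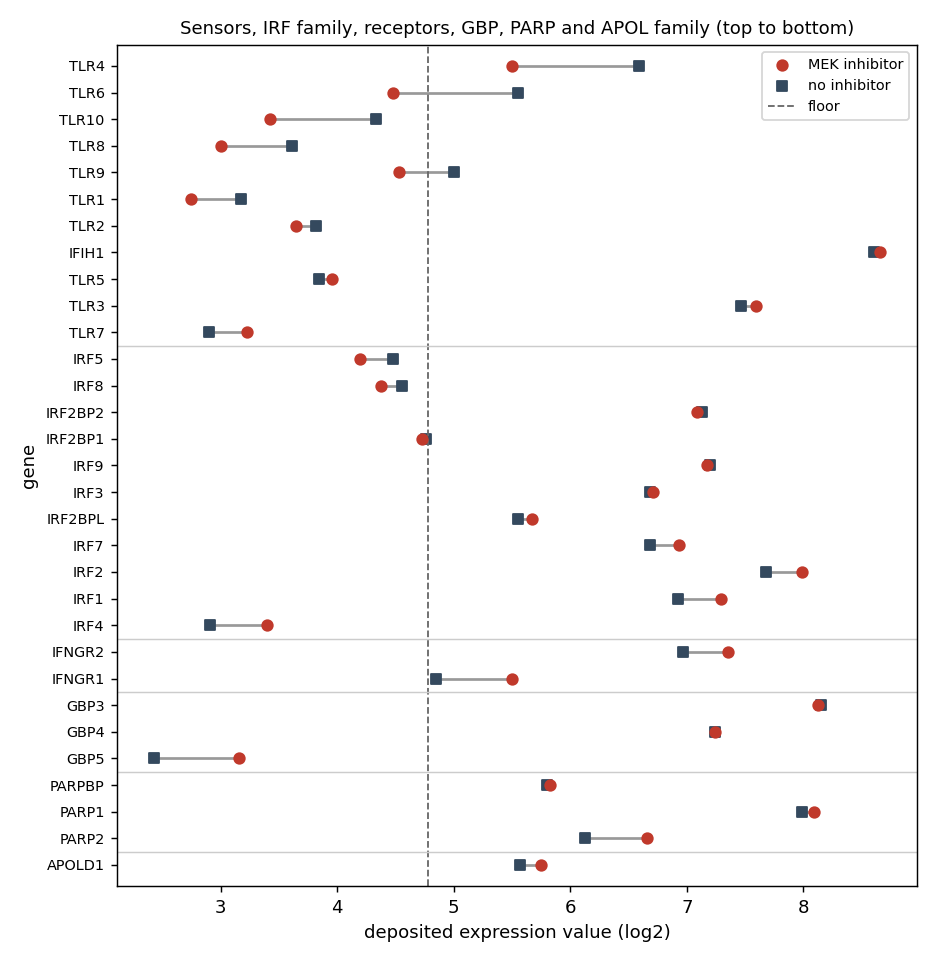
Deposited log2 value of each sensor, IRF family gene, interferon receptor chain, GBP, PARP and APOL family gene with the MEK inhibitor (red circles) and without it (dark squares), in that order from top to bottom; the dashed line is the floor of 4.78. TLR4 and TLR6 have the widest gaps, and both IFNGR chains lie to the right of their values without the inhibitor.

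The GBP, PARP and APOL families had 6 genes above the floor, and none reached 1.5-fold. GBP3 and GBP4, guanylate-binding proteins induced by interferon gamma, had differences of -0.02 and 0.00, the second without a settled sign under rescaling. GBP5 read 3.16 with the inhibitor and 2.43 without it, below the floor on both arrays. PARP2 read 6.65 with the inhibitor and 6.13 without it (0.53), and PARP1, the main sensor of DNA breaks, had 0.10. PARPBP, a binding partner of PARP1, had 0.02, which turned below 0 with the loess. APOLD1, an apolipoprotein L domain protein, had 0.18. The interferon-induced PARP and APOL genes are not analysed here, so these values do not describe them.

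TRIM genes as a family did not lean either way. Of 36 above the floor 19 were higher and 17 lower, the median was 0.02, and the middle 50% of differences lay between -0.12 and 0.28. Differences smaller than 0.5 were read for 33 of them. The exceptions were TRIM2 and TRIM8, which were lower, and TRIM16, which was higher. TRIM2 (probe set 16971546), a ligase with an NHL repeat domain that acts on the neurofilament light chain, read 4.76 with the inhibitor and 5.84 without it, 2.11-fold lower. TRIM8 (probe set 16708719), a ligase that acts on regulators of JAK-STAT and NF-kappaB signalling, read 6.96 with and 7.92 without it, 1.95-fold lower and well above the floor on both arrays. TRIM16, a family member without a RING domain that acts in the autophagy of damaged lysosomes, read 5.30 with the inhibitor and 4.65 without it, 1.56-fold higher. TRIM2 ended below the floor and TRIM16 passed it with the inhibitor only.

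Of 10 TRIM genes known as interferon-inducible or antiviral 9 were above the floor, 5 higher and 4 lower, with a median of 0.01. Their share above 0 was 55.6%, close to the 53.9% of all genes. TRIM14, an adaptor of mitochondrial antiviral signalling, read 6.72 with the inhibitor and 6.30 without it (0.42). TRIM21, a cytosolic antibody receptor, read 7.89 with and 7.50 without it (0.38). TRIM22, a restriction factor, had a difference of 0.34. The readthrough gene TRIM6-TRIM34 had 0.32 and passed the floor with the inhibitor only. TRIM25, which ubiquitinates RIG-I, read 10.4 on both arrays, a difference of -0.05. TRIM5, which targets retroviral capsids, also had -0.05. TRIM26 and TRIM56 had -0.15 and -0.11, and TRIM38 had 0.01, which turned below 0 after a loess trend was subtracted. The 7 members on chromosome 11 that are listed here in genome order were TRIM21 (0.38), TRIM68 (-0.09), TRIM6-TRIM34 (0.32), TRIM5 (-0.05), TRIM22 (0.34), TRIM3 (-0.08) and TRIM66 (0.14, below the floor). Their signs were mixed, and all 7 differences are smaller than the 0.80 that bounds 95% of probe set disagreements. No direction is therefore given for neighbours.

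The 3 chromatin TRIM genes with a PHD finger and a bromodomain that were above the floor were all slightly lower. TRIM28, the corepressor of KRAB zinc finger proteins, read 9.32 with the inhibitor and 9.44 without it. TRIM33 and TRIM24 had differences of -0.13 and -0.06. Among the others, TRIM37, a ligase that limits centriole assembly, read 9.02 with the inhibitor and 8.67 without it (0.35). TRIM47 and TRIM4 both had 0.36, TRIM59 had 0.30 and TRIM44 had 0.20. TRIM62 had 0.26, TRIM65, a ligase of the sensor MDA5, had 0.14, and TRIM32, an NHL repeat ligase, had 0.18. TRIM11 and TRIM41 had 0.09 and 0.04, of which TRIM41 turned below 0 with the loess. Lower values were read for TRIM52 (-0.18), TRIM13 (-0.12), an anchored ligase of the endoplasmic reticulum, TRIM17 (-0.12), TRIM68 (-0.09), TRIM3 (-0.08) and TRIM72 (-0.08), which repairs the membrane of muscle cells. TRIM35 and TRIM67 had -0.45 and -0.37 and were above the floor without the inhibitor only. TRIM27 had 8 probe sets with 6 distinct pairs of values. Their differences ran from -0.23 to 0.12 with 4 of the 6 lower and a mean of -0.06, so its value of 0.09 has no settled direction. TRIM64B (0.28) and TRIM74 (0.19) have near-identical copies, and their probe sets may read more than 1 gene.

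**Figure D4:**
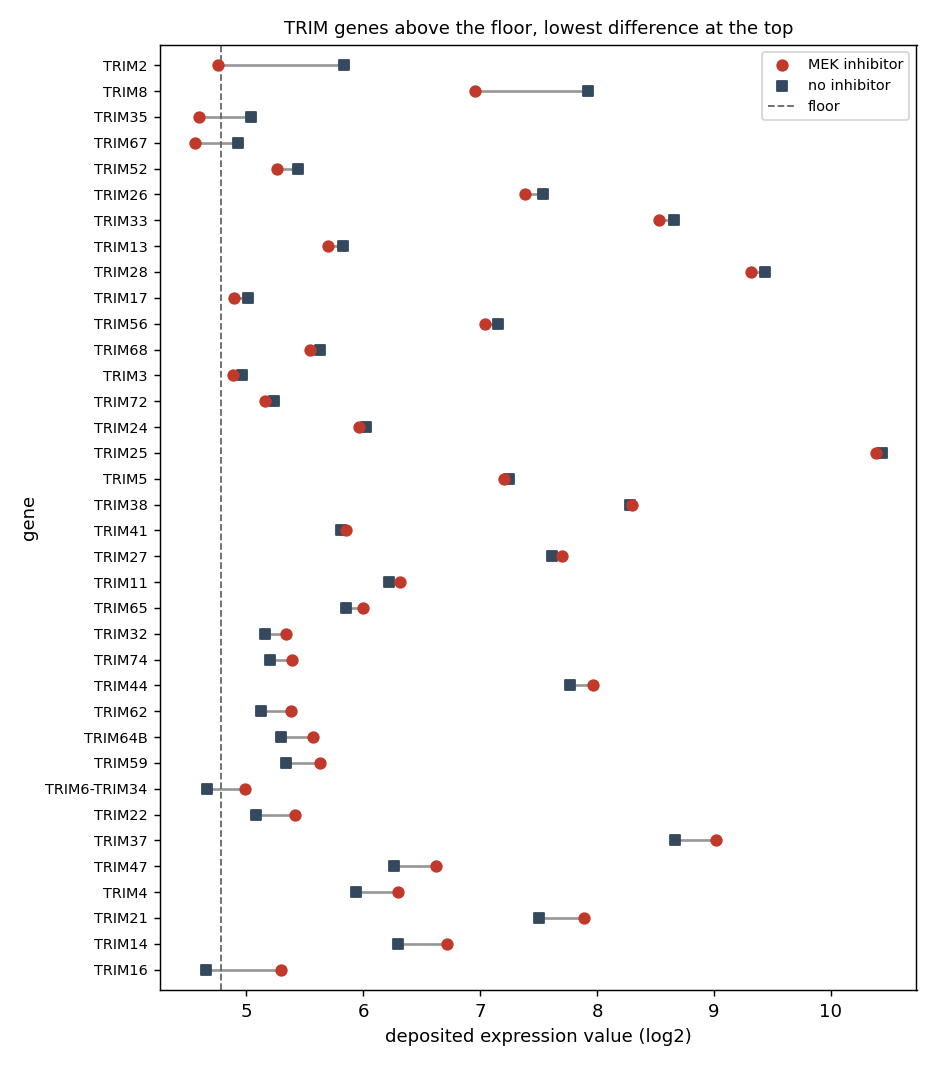
Deposited log2 value of the 36 TRIM genes above the floor with the MEK inhibitor (red circles) and without it (dark squares), ordered from the lowest difference at the top; the dashed line is the floor of 4.78. TRIM2 and TRIM8 have the widest gaps, and 33 genes differ by less than 0.5.

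The 40 members below the floor were 27 TRIM genes, 6 Toll-like receptors, 4 genes of the IRF group, GBP5, IFIT1B and IFITM5. Of these, 13 were higher and 27 lower, none reached 2-fold, and their differences ran from -0.91 (TLR10) to 0.73 (GBP5). The share lower among all genes below the floor was not computed, so no direction is given for them. The TRIM genes below the floor read between 2.08 and 4.59 on both arrays, with differences from -0.47 (TRIM64) to 0.42 (TRIM7). They include TRIM54, TRIM55 and TRIM9, known from muscle and neurons, and TRIM29, TRIM31 and TRIM69. Of the 9 members with several probe sets 7 lie on chromosome 6. TRIM10 and TRIM15, which lie in the major histocompatibility complex, had 8 probe sets each with only 3 and 4 distinct pairs of values, all higher, with differences of up to 0.38 and 0.39. TRIM40, from the same complex, had 8 probe sets with 7 distinct pairs, whose differences ran from -0.47 to 0.28.

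Interferon pathway genes that the symbol rule leaves out were also examined. Of 78 listed genes 52 had a symbol. Of these 48 were above the floor, 35 higher and 13 lower, with a median of 0.11. Their share above 0 was 72.9%, against 53.9% of all genes. CXCL11 and ZBP1 passed the floor only through the array with the inhibitor, where they were higher, so this share rests partly on the filter. Only the chemokine gene CXCL10, induced by interferon and by NF-kappaB, was past 2-fold. Over all genes above the floor 0.628% were higher and 1.05% lower by 2-fold. CXCL10 read 7.33 with the inhibitor and 5.69 without it (1.63). STING1, the adaptor of cytosolic DNA sensing, read 5.91 with the inhibitor and 6.89 without it (-0.98).

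Enzymes of the ISG15 system had unlike differences although ISG15 itself had -0.02. UBA7, which activates ISG15, read 6.12 with the inhibitor and 5.54 without it (0.58). UBE2L6, the conjugating enzyme, read 7.44 with and 6.66 without it (0.78). HERC5, the main ligase, read 7.45 with the inhibitor and 8.03 without it (-0.58). USP18, which removes ISG15, had 0.03. Of the 25 other induced genes above the floor 18 were higher, CXCL11 among them, and 7 lower, HERC5 among the 7. SAMD9, a restriction factor of poxviruses, had -0.50, and SP110 and PNPT1 had -0.24 and -0.19. RIGI, the RNA sensor, had -0.45. LAMP3 (0.80), EPSTI1 (0.53), RNF213 (0.44) and NMI (0.41) were above 0. The kinase EIF2AK2 (PKR), which stops translation on sensing double-stranded RNA, had 0.15, the nucleotide hydrolase SAMHD1 0.24 and the virion tether BST2 0.09. For DDX60, DTX3L, PLSCR1 and PML the differences were -0.07, -0.02, -0.03 and 0.01.

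Among kinases and regulators of the receptor pathway 6 of 7 genes were higher, none by 1.5-fold. JAK1, JAK2 and TYK2 had differences of 0.27, 0.03 and 0.04. The feedback inhibitor SOCS3 read 5.59 with the inhibitor and 6.04 without it (-0.45), and SOCS1 had 0.13. Of 6 antigen processing genes above the floor 5 were higher, among them the peptide-trimming enzymes ERAP1 (0.31) and ERAP2 (0.18) and the chaperone CALR (0.23), and none reached 2-fold.

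**Figure D5:**
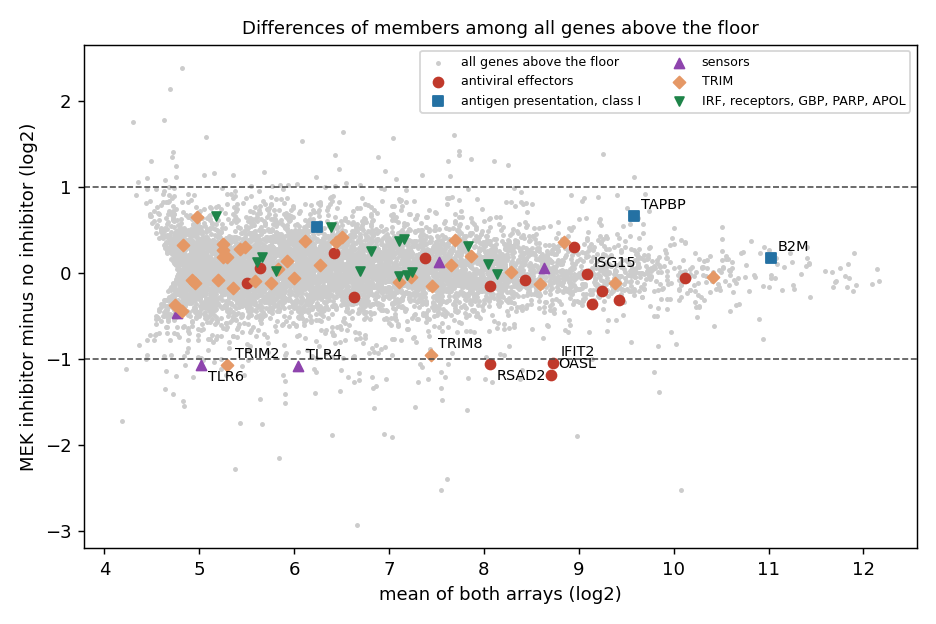
Difference on the log2 scale against the mean of both arrays for the 7164 genes above the floor (grey), with members coloured by role; dashed lines mark 2-fold. The 6 members below -1 span means from about the floor (TLR6) to those of OASL and IFIT2, and no member lies above 1.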

How the data were processed

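Total RNA of 2 S2-013 cultures was hybridised to 1 array each, grouped by title. The authors deposited 1 log2 value per probe set and array. That they are log2 was inferred from their range, 1.16 to 13.4. Affymetrix Expression Console 1.3 is named per the submitters' processing notes, and its settings are not stated there. The medians, 3.46 (inhibitor) and 3.49 (no inhibitor), were close, so values were used as deposited. Such scaling hides a change in total RNA, and whole-transcript summaries compress large folds.

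Of 53617 probe sets, 16098 had 1 symbol in the platform annotation. All 115 members matched the RefSeq gene table, which changed no symbol. MIR and SCARNA symbols were left out. Each gene took its probe set with the highest mean, and the floor was the median over genes. The number of arrays, 1 per group, limits the precision, so no test was run. The steps were tested on simulated data. Members, role groups, motifs and pathway genes were chosen with earlier results of these data known. Any member could be named, and those past 1.5-fold are given with both values. Alternatives were median or loess scaling (fraction 0.4), averaged probe sets, no floor or a 75th percentile floor, 1.5-fold and 3-fold thresholds, and leaving out the member with the largest difference from each group of 3 or more genes. A further motif that was searched is not reported here. Computations used Python 3.11.15, numpy 2.4.6, pandas 2.3.3, statsmodels 0.14.6 and matplotlib 3.10.9.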

Additional observations from a re-analysis of the deposited data

How the results depend on the processing

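No paired analysis was possible because with a single array in a group there are no pairs to form, and leaving out an array would end the comparison. The 6 members lower by 2-fold were also 6 with either scaling, with averaged probe sets and without the floor. With the 75th percentile floor they were 4. At 3-fold 0 members were lower, and at 1.5-fold 3 were higher. Of the 48 pathway genes outside the rule and above the floor, 3 were higher and 1 was lower at 1.5-fold. Over all genes above the floor 4.62% were higher and 3.60% lower at 1.5-fold. After the loess trend was subtracted 1 pathway gene was lower by 2-fold, where 1.05% of all genes were lower as deposited. The median of the sensors, -0.47, was 0.054 with the 75th percentile floor and -0.21 without TLR4. The median of the class I genes, 0.53, was 0.35 without TAPBP. The other medians of groups with 3 or more genes above the floor moved by less than 0.16, the median disagreement between probe sets. The median scaling shifted differences by 0.01 and the loess by at most 0.04. Of the 75 members, 5 changed sign with the loess, all from differences within 0.04 of 0, and TRIM27 did with averaged probe sets.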
